A study of Homo sapiens with 28 samples.

Results

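Some distal accessible regions of myeloma cells lie so close to each other that they form dense clusters, and 110 such regions, in 25 clusters, were examined here. A region was taken as distal when its distance to the nearest transcription start was above 2500 bp, and as shared when a peak was called in it in at least 11 of 22 untreated cell lines. Shared distal regions on a chromosome were joined when the gap between them was at most 15 kb, and joined elements with 4 or more regions were kept. Each cluster carries the symbol of the transcription start nearest to the largest number of its regions, which is a label of position and not a target gene. Where starts were equal in this, the symbol is that of the region with the highest mean level over the untreated lines. Of 154985 regions in all, 113854 were distal and 9763 were shared and distal, and the 110 members made up 1.13% of the last set. The 9763 regions fell into 8674 joined elements, of which 7747 held 1 region, 800 held 2, 102 held 3, 17 held 4, 7 held 5 and 1 held 7.

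The libraries came from 22 untreated myeloma cell lines, each assayed once by ATAC-seq, and from 6 of those lines (Karpas620, KMS27, L363, MM1S, OPM2 and RPMI8226) assayed once more on day 3 of treatment with 10 µM lenalidomide. ATAC-seq reads open chromatin through a transposase that places sequencing adapters where DNA is not packed by nucleosomes. The lines are established cultures of malignant plasma cells with no further genotype in the labels. The untreated libraries of the 6 treated lines are labelled Ctrl, with their treatment given as none. Neither a vehicle nor a time in culture is named for them. Each library is an average over many cells, so a region open in fewer cells and a region less open in every cell cannot be told apart. Copy number differs between myeloma lines and was not removed.

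Totals ranged from 1599857 to 5564534 counts in untreated libraries and from 2168680 to 4248017 in lenalidomide libraries, and values are given as counts per 1000000 of that total (CPM). Regions at the starts of SDC1, TNFRSF17 and PRDM1, which mark plasma cells, were called in 21, 22 and 22 of the 22 lines, and those of IRF4 and XBP1 in 18 each. POU2AF1 went the other way on this measure, since the region read as nearest to a start had a median of 3.89 CPM and was called in 1 line. It had 9 regions at its annotated starts, 3 of them equally near to one, and the tallest had a median of 52.9 CPM and was called in 22 lines. The defining genes of mature B cells, T cells and myeloid cells that had a region at their start (PAX5, MS4A1, CD3D, CD3E, CD3G, CD14 and CSF1R) were called in 1 to 3 lines at the region nearest to a start, with medians between 0.491 and 3.44 CPM, while the tallest start region of PAX5 had 9.73 CPM and was called in 11 lines. The tallest start regions were looked up after the values were seen.

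The libraries labelled KMS34 and PE1 stood apart from all other pairs of different lines. Over 28557 regions with a mean above 20 counts, their log2 values had a Pearson r of 0.926, while the 6 pairs of untreated and lenalidomide libraries of one line had r from 0.933 to 0.959 and the other 371 pairs of different lines reached at most 0.737. Their counts were not those of one library, since the mean chi-square per region was 3.06 where sampling alone gives about 1, but this lay within the 2.105 to 3.18 of the same-line pairs, and the lowest of the other pairs was 9.10. Whether both labels stand for cells of one origin was not tested. KMS12BM and KMS12PE, whose labels share the stem KMS12, were among the other pairs, with r of 0.679 and a mean chi-square of 22.8. They were counted as 2 lines. Choosing the members without PE1 gave the same 110 regions, whereas choosing them without KMS34, at 11 or more of 21 lines, left 92 of them in 21 clusters and lost the NUDT4P1, RP11-600L4.1, MED6P1 and CCR12P clusters. The rule therefore counted these libraries as 2 lines, and the median variation of the clusters across lines (the SD of log2 values) was 0.68 without PE1 and 0.69 without KMS34.

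Distal accessible regions are often enhancers, which bind transcription factors and act on promoters over a distance. Enhancers that lie close together over many kilobases have been described as stretch enhancers or super-enhancers, and in B lymphoid cells and plasma cells such groups are known at immunoglobulin genes and at genes of cell identity. Joining nearby elements within a set distance is the usual first step of finding them, although the usual definition ranks the joined elements by a histone mark or a coactivator, neither of which was measured here. In myeloma, translocations that place an oncogene beside such elements are a recurrent event.

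The central 300 bases of 7 member regions are shown, on the plus strand of GRCh37: 1 as the tallest member of all (TRAM2), 3 from the clusters MEF2C-AS1, POU2AF1 and ELK2BP, which is beside IGHA2, and 3 with the lowest adjusted p in the clusters that were raised after lenalidomide (NUDT4P1, RNA5SP86 and CCR12P). Capitals mark letters that match one of the searched motifs on either strand, leaving out the very frequent E-box.
TRAM2: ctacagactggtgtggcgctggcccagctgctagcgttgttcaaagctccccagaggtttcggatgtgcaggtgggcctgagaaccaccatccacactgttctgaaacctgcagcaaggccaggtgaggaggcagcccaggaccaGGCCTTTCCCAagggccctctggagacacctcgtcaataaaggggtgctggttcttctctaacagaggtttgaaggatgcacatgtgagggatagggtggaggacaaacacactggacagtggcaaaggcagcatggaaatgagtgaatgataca
MEF2C-AS1: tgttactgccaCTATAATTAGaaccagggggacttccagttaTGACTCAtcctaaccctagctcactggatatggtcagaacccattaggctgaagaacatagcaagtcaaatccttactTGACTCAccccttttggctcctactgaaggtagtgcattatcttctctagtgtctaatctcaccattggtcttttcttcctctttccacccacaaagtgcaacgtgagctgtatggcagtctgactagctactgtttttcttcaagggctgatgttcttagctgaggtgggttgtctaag
POU2AF1: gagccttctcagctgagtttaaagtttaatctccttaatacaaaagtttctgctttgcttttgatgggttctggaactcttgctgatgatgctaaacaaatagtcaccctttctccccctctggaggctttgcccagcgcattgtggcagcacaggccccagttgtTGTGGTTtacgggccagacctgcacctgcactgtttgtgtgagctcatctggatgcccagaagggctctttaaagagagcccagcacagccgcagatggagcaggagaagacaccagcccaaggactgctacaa
ELK2BP: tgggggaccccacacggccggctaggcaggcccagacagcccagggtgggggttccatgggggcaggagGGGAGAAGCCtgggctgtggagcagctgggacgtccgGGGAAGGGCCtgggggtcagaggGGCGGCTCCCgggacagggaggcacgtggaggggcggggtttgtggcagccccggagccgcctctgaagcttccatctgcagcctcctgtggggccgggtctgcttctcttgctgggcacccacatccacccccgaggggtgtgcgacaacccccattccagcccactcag
NUDT4P1: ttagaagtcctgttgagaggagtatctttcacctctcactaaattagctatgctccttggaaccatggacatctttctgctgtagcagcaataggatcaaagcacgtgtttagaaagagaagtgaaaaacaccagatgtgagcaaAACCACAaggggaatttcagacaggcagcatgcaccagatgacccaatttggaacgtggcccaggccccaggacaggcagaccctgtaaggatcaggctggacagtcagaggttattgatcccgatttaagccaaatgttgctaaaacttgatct
RNA5SP86: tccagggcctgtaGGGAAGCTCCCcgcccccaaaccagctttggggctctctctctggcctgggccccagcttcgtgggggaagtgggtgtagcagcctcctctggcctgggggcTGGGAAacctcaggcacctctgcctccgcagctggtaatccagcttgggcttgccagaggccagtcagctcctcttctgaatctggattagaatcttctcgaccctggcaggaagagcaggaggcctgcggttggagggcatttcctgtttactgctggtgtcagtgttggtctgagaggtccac
CCR12P: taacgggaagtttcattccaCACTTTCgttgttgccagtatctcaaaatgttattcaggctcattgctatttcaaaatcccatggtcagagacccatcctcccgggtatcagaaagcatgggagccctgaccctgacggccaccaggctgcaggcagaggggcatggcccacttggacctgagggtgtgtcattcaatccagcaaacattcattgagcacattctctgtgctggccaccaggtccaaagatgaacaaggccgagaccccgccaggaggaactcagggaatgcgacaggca
The TRAM2 window, at chr6:52401491-52401790, holds an Ikaros and an NF-kB match that share letters. The MEF2C-AS1 window, at chr5:88609756-88610055, holds 2 AP-1 matches and 1 of MEF2, and the POU2AF1 window, at chr11:111309887-111310186, holds 1 RUNX match. In the ELK2BP window, at chr14:106026367-106026666, 71% of bases are G or C and 3 matches are to NF-kB. The windows of NUDT4P1 (chr1:145159420-145159719), RNA5SP86 (chr2:20624514-20624813) and CCR12P (chr13:100084713-100085012) hold 1 RUNX match, 1 Ikaros and 2 NF-kB matches, and 1 BLIMP1 match. The 2 NF-kB matches of RNA5SP86 share letters and lie in 1 stretch. A match is a description of letters and not evidence of binding.

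The 25 clusters lay on 12 chromosomes, with 6 on chromosome 8 and 5 on chromosome 2. They spanned 13308 to 46158 bp with a median of 28190 bp, and the median gap between neighbouring members was 6261 bp. The members covered 86846 bp in all and had a median width of 708.5 bp, close to the 712 bp of the other shared distal regions. Of the members, 49 were in introns, 8 touched an exon and 53 were outside genes. The share outside genes, 48.2%, was near the 48.8% of the other shared distal regions, and the median distance from a transcription start was 16173 bp against 14394 bp. Thus the clusters differed from the remaining shared regions in spacing, which the rule set, and little in width or place.

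The cluster with the most regions was the one named RP11-540K16.1, after a noncoding RNA, with 7 members between 181103484 and 181149641 on chromosome 1. Its nearest coding gene was IER5, an immediate early gene, whose start was 45.6 kb away. Its summed level ran from 63.7 CPM in OCIMY5 over a median of 140 to 310 in KMS21BM. Members 3 and 4 were called in all 22 lines, whereas members 5 and 7 were called in 12 and 14 lines and ran from 1.86 to 68.1 CPM and from 1.25 to 77.7 CPM. The cluster thus combined regions open in every line with regions that were nearly closed in some lines and tall in others.

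The 7 clusters of 5 members were RNA5SP86, INPP4A, RN7SL499P, TRAM2, RAB11FIP1, RN7SL329P and NEURL. TRAM2, which encodes a protein associated with the translocation channel of the endoplasmic reticulum, had the tallest member of the set at a mean of 79.4 CPM, from 30.2 in Karpas620 to 152 in H1112, and this region gave 55.6% of the cluster's mean signal. Its neighbours could be closed where it was open, since member 1 was at 0 CPM in PE1 and member 4 at 0 CPM in KMS34 while the tall member was called in all 22 lines. INPP4A, a phosphoinositide phosphatase gene, held all 5 members of its cluster in its introns, and 4 of them had similar means between 21.4 and 24.2 CPM, so that no single region dominated. The RNA5SP86 cluster, named for a ribosomal pseudogene, lay 16.9 kb from the start of RHOB and 170.5 kb from that of SDC1, the syndecan gene by which myeloma cells are sorted. RN7SL329P, a pseudogene of the signal recognition particle RNA, named the cluster within NSMCE2, a SUMO ligase gene, with TRIB1, a pseudokinase gene, as the nearest coding start at 126.9 kb.

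**Figure D1:**
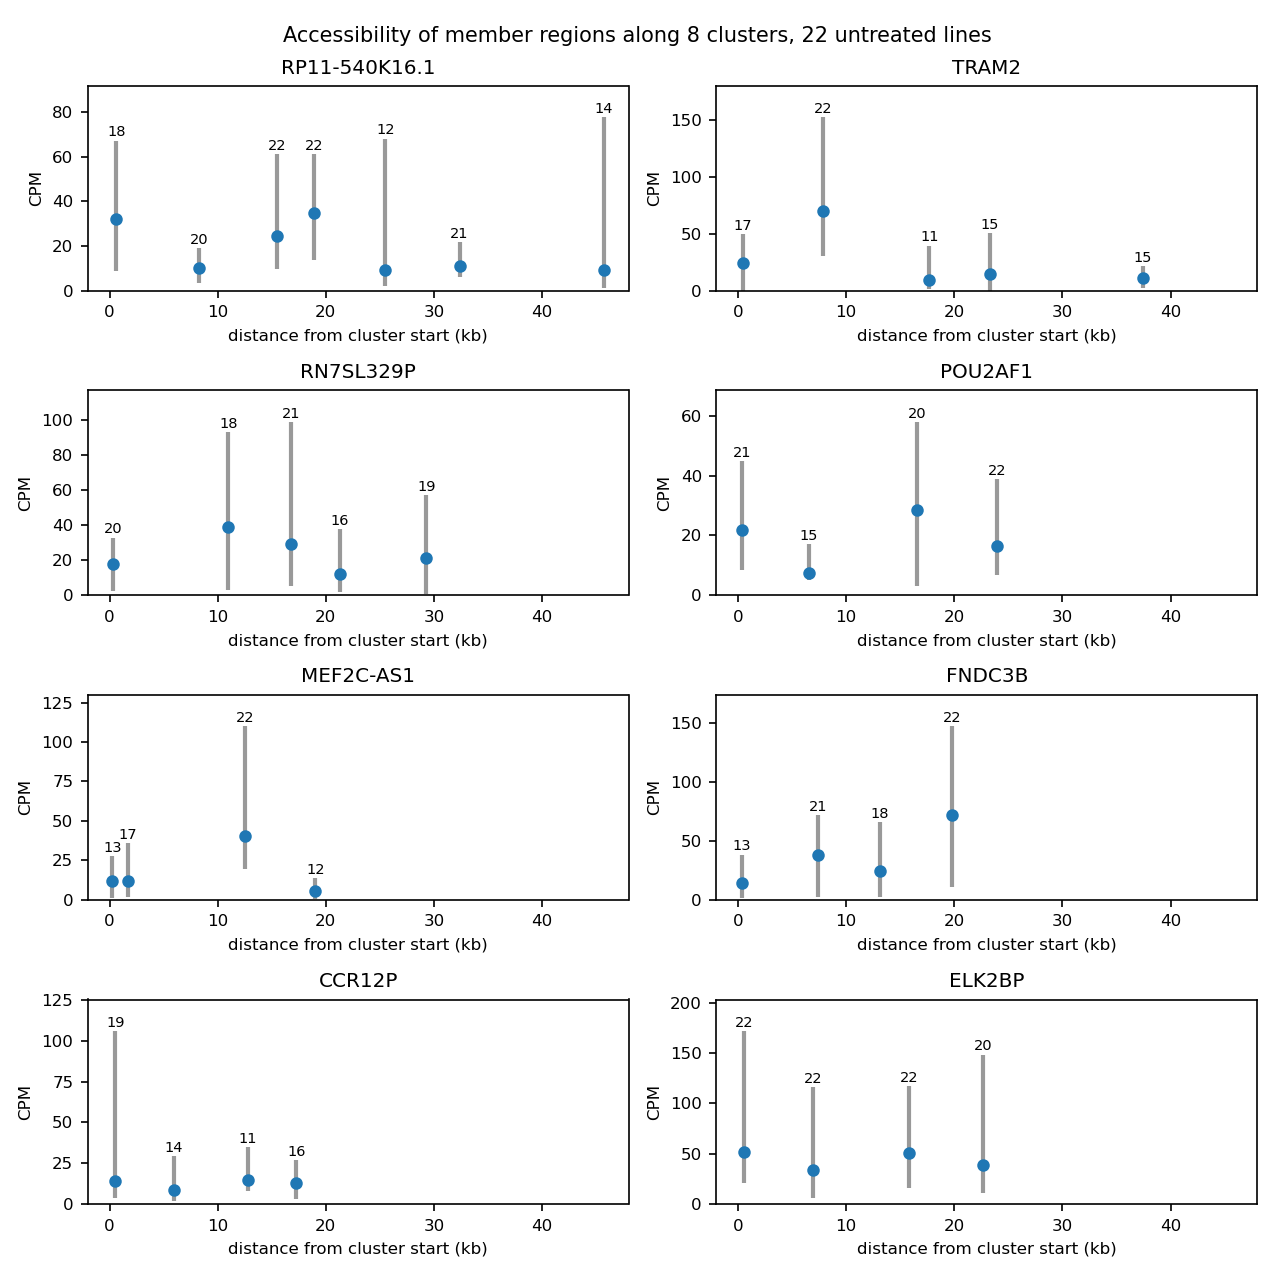
CPM of member regions (y axis, linear, own scale in each panel) against the distance of the region centre from the start of the cluster in kb (x axis) for 8 clusters; points are medians over 22 untreated lines, bars run from the lowest to the highest line, and the number above each bar is how many lines had the region called. In MEF2C-AS1 and TRAM2 1 region stood above its neighbours, whereas the 4 regions of ELK2BP had medians between 34.1 and 51.7 CPM.

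The cluster at POU2AF1, which encodes the coactivator of octamer-binding factors in B cells, had 4 members within the gene from 111293458 to 111317741 on chromosome 11. The summed level was 33.7 CPM in KMS20, 77.2 at the median and 126 in KMS26, and all 4 members were called in 13 lines. The ELK2BP cluster, between 106025933 and 106049198 on chromosome 14, lay next to IGHA2, the constant gene of immunoglobulin A2, on the side where the known 3′ regulatory region of the heavy chain locus lies. It had the highest mean sum of the 25, at 207 CPM, running from 58.8 in PE1 to 452 in KMS12BM, and all 4 members were called in 20 of 22 lines. MEF2C-AS1, the antisense RNA of the MEF2C locus, named 4 intronic regions at 397.3 kb from the nearest start of MEF2C, a transcription factor gene of B lymphoid and muscle cells. One of those regions was called in all 22 lines and gave 59.4% of the signal of its cluster, the highest share for a tallest member among the 25, where the median was 41.0% and the lowest 22.6%.

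Near or within genes of the secretory and growth pathways, the UBE2J1 cluster had 3 of its 4 members in RRAGD, which encodes a Rag GTPase of amino acid sensing, and the other outside genes. The start nearest to most of them was that of UBE2J1, which encodes a ubiquitin-conjugating enzyme of endoplasmic reticulum-associated degradation. It varied least across lines, from 40.0 CPM in PCM6 over 80.9 to 129 in U266. FNDC3B, a gene for a membrane protein with fibronectin type III domains, held 4 intronic members with the next highest mean sum after ELK2BP, 155 CPM. TPD52, RAB11FIP1 (an effector of the recycling GTPase Rab11) and KB-1043D8.8 (at GDF6, a bone morphogenetic protein gene) were further clusters on chromosome 8, with means of 66.1, 89.9 and 51.8 CPM. LOXL1, a lysyl oxidase-like gene, had the lowest mean sum at 32.1 CPM, with each member between 6.95 and 9.23 CPM on average.

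The remaining clusters were PKDCC (120 CPM on average, between PKDCC and EML4), BCYRN1 (127 CPM, 9.8 kb from EPCAM), RN7SL499P (112 CPM, 31.5 kb from PTMA), RP11-600L4.1 (69.0 CPM, 343.9 kb from KLF3), WISP1 (67.7 CPM, at CCN4), MED6P1 (74.0 CPM), NEURL (78.2 CPM), ZBTB16 (74.5 CPM, inside a zinc finger repressor gene) and CCR12P (67.2 CPM, 9.0 kb from TM9SF2 and 112.4 kb from GPR183, an oxysterol receptor gene of B cells). In total, 12 of the 25 had no member inside a coding gene. Distances are given to starts of coding genes on GRCh37, and no contact between a cluster and a gene was measured.

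In 3 clusters most of the sequence occurs more than once in the genome. The median share of 31-base words with another exact copy was 83.6% in NUDT4P1, 86.4% in ELK2BP and 92.3% in RP11-303G3.6, whereas over all members the median was 0%. Reads from such sequence can belong to another copy, and how the authors placed them is not given in the sources used here, so the levels of these 12 members are uncertain. More than 50% repeated words were found in 10% of members and in 7.27% of other shared distal regions.

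Among the genes of the lists used here, POU2AF1 was the only one of 16 plasma cell factors that named members, and IGHA2 the only immunoglobulin symbol. None of the 14 genes and enhancer partners of translocations, 15 surface antigens, 11 secretory pathway genes, 14 B cell genes, 10 NF-kB genes, 10 survival and cell cycle genes or 15 genes of other cells did so. The densest joined element at any of these genes held 3 regions for the surface antigens (CD38 and SDC1), 2 for the secretory, B cell and survival lists and 1 for the rest. Regions were assigned to the nearest start alone, so a cluster at a distance from its gene, such as RNA5SP86 and SDC1, does not count for it.

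**Figure D2:**
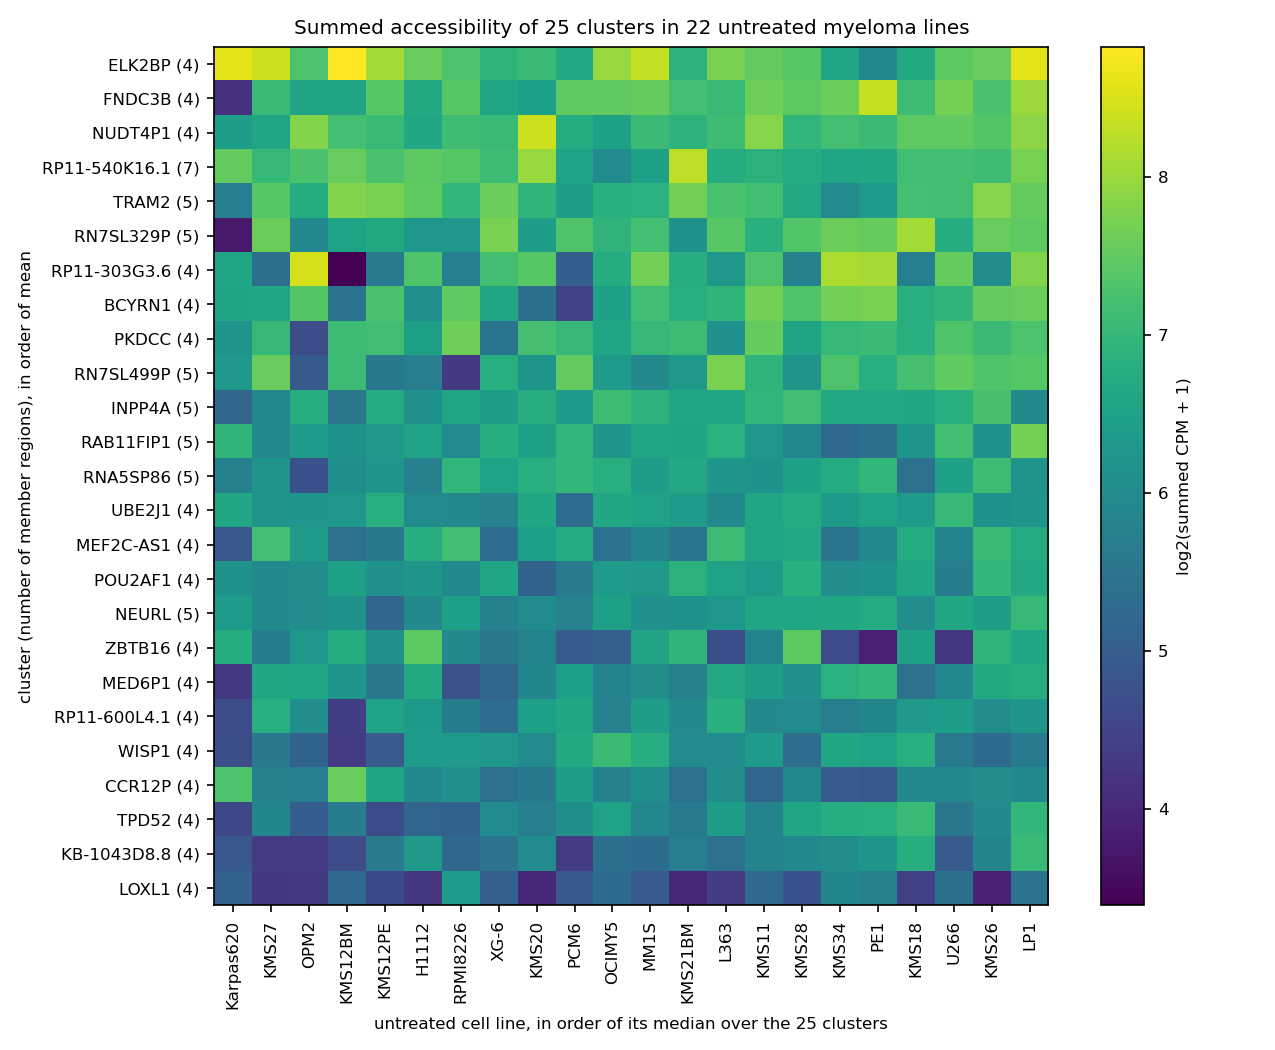
Summed accessibility of each cluster, as log2(summed CPM + 1) in colour, in 22 untreated lines (x axis, ordered by the median over clusters) for the 25 clusters (y axis, ordered by mean, with the number of regions in brackets). Single lines had low values, such as RP11-303G3.6 in KMS12BM and RN7SL329P and FNDC3B in Karpas620.

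Sharing in at least 11 lines did not make the clusters even across lines. As a description, since the calls in these libraries chose the members, the highest line exceeded the lowest by 3.22-fold to 37.4-fold per cluster, with a median of 5.94-fold. The SD of log2(summed CPM + 1) over 22 lines had a median of 0.68. The 5 clusters with the lowest spread were UBE2J1 (0.38), NEURL (0.41), POU2AF1 (0.44), NUDT4P1 (0.49) and INPP4A (0.52). The 5 with the highest spread were RP11-303G3.6 (1.23), ZBTB16 (1.01), RN7SL329P (0.91), RN7SL499P (0.90) and BCYRN1 (0.84). Joined elements of 1, 2 and 3 regions in the same range of mean CPM had median SDs of 0.84, 0.81 and 0.75, and sums over more regions vary less by their construction.

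Some clusters were lower in 1 line than in any other. FNDC3B had 16.999 CPM in Karpas620, 87.2 in the next lowest line and 323 in PE1. RN7SL329P had 12.5 CPM in Karpas620, 60.0 in the next lowest line and 269 in KMS18. RP11-303G3.6 had 9.47 CPM in KMS12BM, 31.2 in the next lowest line and 354 in OPM2, with a median of 108. The gap to the next line was thus widest for FNDC3B, which like RN7SL329P was lowest in Karpas620.

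ZBTB16 had 13.8 CPM and no called member in PE1, 18.04 in the next lowest line and 174 in H1112. In PE1 the other regions within 1 Mb of ZBTB16 summed to 0.191 of their median over lines, and in H1112 to 1.601. For RP11-303G3.6 this ratio was 0.301 in KMS12BM, its lowest line, and for FNDC3B 0.633 in Karpas620. Over the 25 clusters, the surroundings were above their median in the highest line of 25 and below it in the lowest line of 20. In the line where a cluster was tallest its neighbourhood was therefore above its median, by a margin that differed widely. The ratio ran from 1.05 for MEF2C-AS1 in KMS27 to 2.08 for LOXL1 in RPMI8226. The part of copy number in this was not tested.

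Karpas620 was the lowest line in 8 of the 25 clusters and LP1 was above the median in 21. The share of all counts that fell in members had a median of 0.250% over the 22 untreated libraries, from 0.198% in Karpas620 (95% Wilson interval 0.193 to 0.203, counting error only) to 0.362% in LP1. Karpas620 was also the lowest line for the other shared distal regions, with 12.0% of its counts there, whereas LP1 had 17.2% there and was not the highest line. Between 64 and 102 of the 110 members were called per untreated library, and 9 members were called in exactly 11 lines, 16 in all 22. For scale at that threshold, 1409 distal regions were called in exactly 11 lines and 1587 in exactly 10.

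Neighbouring members of a cluster varied together across lines to a moderate degree. The median Pearson r of log2(CPM + 1) over 22 lines was 0.49 for the 85 neighbouring pairs, of which 76 were above 0, against 0.47 for 1004 pairs within elements of 2 or 3 regions and 0.31 for 8150 neighbouring pairs in different elements at most 1 Mb apart. These points share libraries, depth and copy number. Within clusters the median r was highest in FNDC3B (0.85), RP11-303G3.6 (0.77) and ELK2BP (0.75) and lowest in NUDT4P1 (-0.13) and POU2AF1 (-0.06), so the members of POU2AF1 did not share a common pattern over these lines while its sum was among the most even.

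Mean levels were higher in members than in other shared distal regions, with medians of 17.8 and 12.4 CPM, but both were chosen from calls in the same libraries. An independent reading was taken by choosing regions from the 16 lines without a lenalidomide library, at 8 or more of 16, and reading them in the untreated libraries of the other 6. This rule gave 124 clustered and 11115 other shared distal regions, and 98 of the clustered ones were also members above. In the held-out lines the mean log2(CPM + 1) was 3.74 for clustered and 3.21 for other regions, a difference of 0.53 ± 0.27 (SD, n = 6 lines), higher in 6 of 6 lines (exact two-sided sign-flip test, p = 0.03125, the smallest that 6 lines allow). The difference ran from 0.03 in OPM2 to 0.77 in L363. Leaving out the 3 clusters in repeated sequence, it was 0.43 (p = 0.0625 by the same exact test), and with a level per kb it was 0.52 (p = 0.0625 by the exact test).

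Calls gave a less even picture. In Karpas620, KMS27, L363, MM1S and RPMI8226 the percentage of regions called was higher for clustered regions, by 9.08, 10.5, 17.8, 11.9 and 17.1 percentage points. In OPM2 it was lower by 4.18 points (56.5% against 60.6%). The mean difference was 10.4 ± 7.95 percentage points (SD, n = 6 lines; exact two-sided sign-flip test, p = 0.0625), which did not pass the threshold. With regions chosen without KMS34 it was 11.4 points (p = 0.03125 by the same exact test). Both differences were thus positive on average in lines that took no part in the choice of regions, and each passed or missed the threshold depending on the setting.

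**Figure D3:**
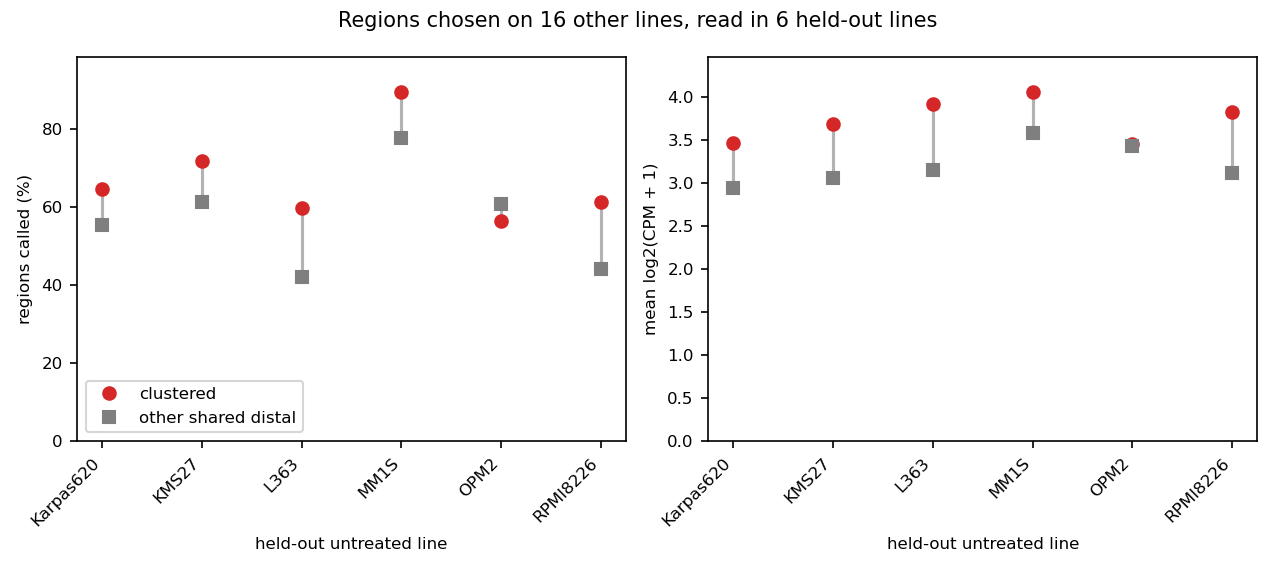
Percentage of regions called (left, y axis) and mean log2(CPM + 1) (right, y axis) of clustered regions (red circles) and other shared distal regions (gray squares) in the untreated library of each of 6 held-out lines (x axis), with both sets chosen from 16 other lines. The red circles lie above the gray squares in 6 lines for the level and in 5 for the calls.

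In GC content and most motifs the members were near the other shared distal regions, with the widest gap at CTCF. Over the central 300 bases the median GC content was 50.5% in members, 48% in other shared distal regions and 45.3% in all distal regions. Motifs were searched on both strands, and the most frequent was the E-box CAGNTG, bound by basic helix-loop-helix factors, in 72.7% of members, 69.6% of other shared distal and 64.2% of all regions. NF-kB, searched as GGGA and CC with 4 bases of any kind between them, was found in 20%, 19.3% and 17.5%, the Ikaros letters TGGGAA in 18.2%, 22.4% and 21.3%, and the RUNX letters TGTGGTT in 15.5%, 15.7% and 13.01%. AP-1 (TGANTCA) was found in 11.8%, 15.7% and 15.2%. Of the motifs bound by interferon regulatory and related factors, the ISRE (GAAA, 2 bases of any kind, GAAA) was found in 10%, 12.5% and 9.60%, BLIMP1 (GAAAGTG) in 10%, 9.02% and 8.51%, and ETS-IRF (GGAA, 2 bases of any kind, GAAA) in 5.45%, 5.30% and 5.11%. These 3 share letters and can overlap.

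The octamer ATGCAAAT, the site of the factors that POU2AF1 assists, was found in 2.73%, 3.00% and 3.71%, MEF2 in 4.55%, 6.44% and 5.67%, and ETS (CCGGAAGT) in 0.909%, 0.611% and 0.970%. CTCF, whose protein shapes chromatin loops, was found in 1.82% of members (2 regions), 7.28% of other shared distal and 2.85% of all regions, the widest gap between members and other shared distal regions among the 12 motifs. With 110 members a share of 10% stands for 11 regions, so these percentages are coarse, and no test was made.

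Lenalidomide binds cereblon and leads to the loss of the factors IKZF1 and IKZF3 in myeloma cells. The 6 treated libraries were compared with the untreated libraries of the same lines by edgeR over all regions that passed a filter on low counts, with the cell line as a block, and 109 of the 110 members were among the 37732 regions tested. After treatment 11 members, in 8 clusters, were past the threshold, beside a background of 5.44% of all regions and 6.77% of the other shared distal regions in either direction. Of these, 5 were raised at an adjusted p below 0.05, which is 4.59% of those tested against a background of 4.2% of all regions and 4.06% of the other shared distal regions. The share raised was thus near the background. The other 6 were lowered, which is 5.50% against a background of 1.24% of all regions and 2.71% of the other shared distal regions. The median log2 change was -0.04 in members, -0.05 in other shared distal regions and -0.01 in all regions. Without the library labelled KMS34 in the choice of members, 2 raised and 6 lowered were counted among 92 members. DESeq2 called 2 members lowered (1.83%, where it called 0.299% of all regions lowered). In edgeR fits that leave out 1 line, 2 were lowered without KMS27, L363 or MM1S, 3 without OPM2, 4 without Karpas620 and 8 without RPMI8226. The share lowered in these 6 fits was 1.83% to 7.48% of members and 0.581% to 1.61% of all regions, and it was higher in members in each. Members were chosen by calls in untreated libraries that include those compared here, which favours falls, and all regions were not. The other shared distal regions, chosen in the same way, were not counted in these fits or in DESeq2. Members chosen on the 16 lines outside this comparison gave 7 lowered (5.93%) and 3 raised (2.54%). Members 2, 3 and 5 of RN7SL329P were among the 6 lowered.

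**Figure D4:**
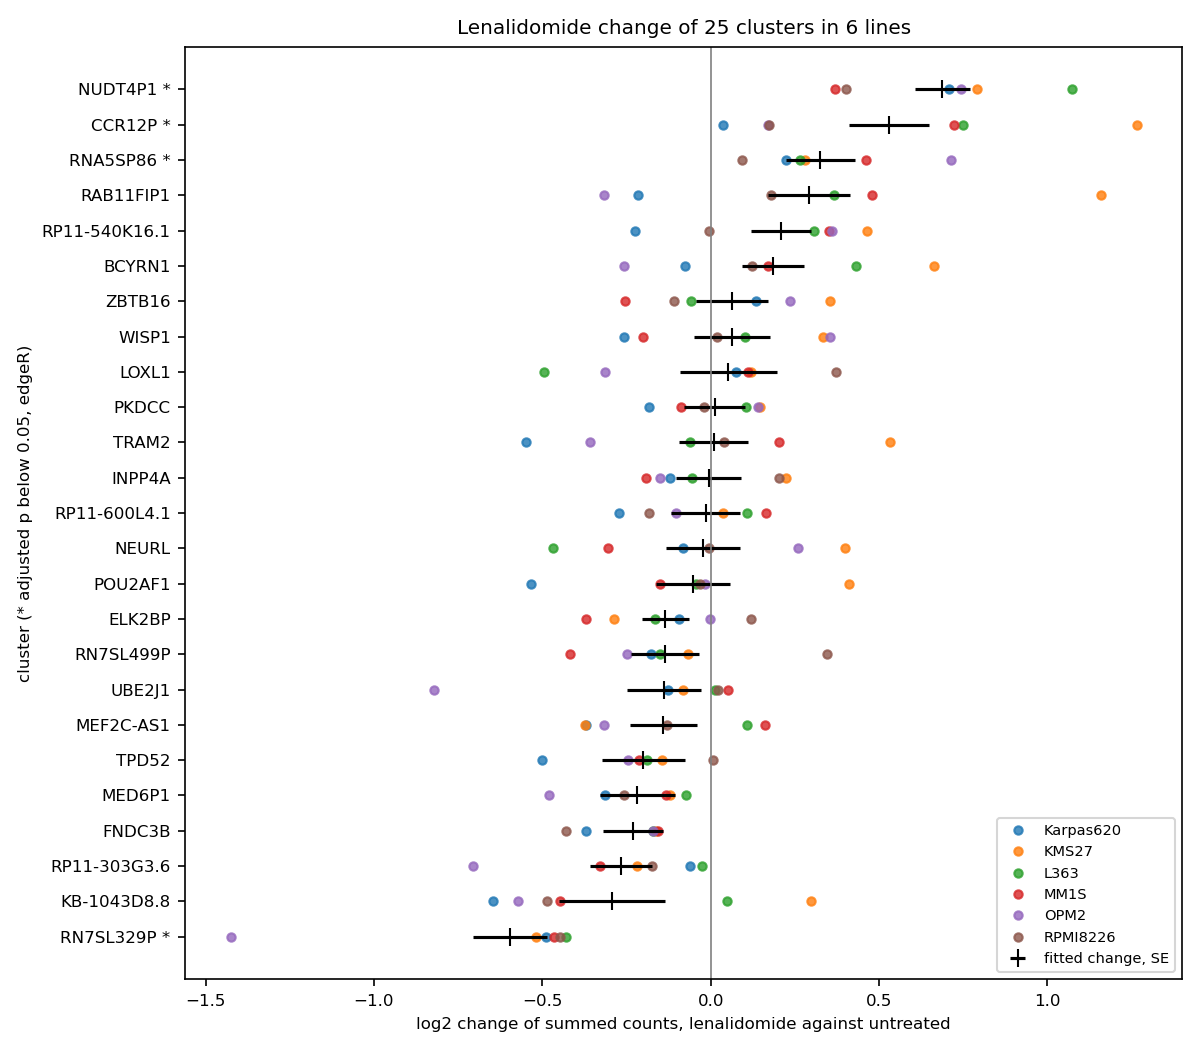
Log2 change of the summed counts of each cluster after lenalidomide (x axis) for 25 clusters (y axis, ordered by the fitted change); coloured points are the 6 lines and black ticks with bars the edgeR estimate with its SE, and asterisks mark an adjusted p below 0.05. NUDT4P1, CCR12P and RNA5SP86 were raised and RN7SL329P was lowered in all 6 lines, and OPM2 lay apart at RN7SL329P and UBE2J1.

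Summed over each cluster, 3 of 25 were raised (12%, against a background of 3.69% of the 8134 joined elements tested) and 1 was lowered (4%, against 2.78%), with a background of 6.47% in either direction. This background is not matched to the clusters. Of the 8674 joined elements before the filter, 7747 held 1 region, and a sum over fewer regions holds fewer counts to test. Of the 22 clusters outside repeated sequence, 2 were raised and 1 was lowered, and the background was not limited to such sequence. The other 21 of the 25 had fitted log2 changes between -0.29 and 0.29, and none of them passed the threshold. Of the 21 clusters chosen without the library labelled KMS34, which do not include NUDT4P1 and CCR12P, 1 was raised and 1 lowered (4.76% each).

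NUDT4P1 rose most. Its summed level went from 83.6 to 137 CPM in Karpas620, from 96.5 to 168 in KMS27, from 140 to 295 in L363, from 135 to 174 in MM1S, from 223 to 374 in OPM2 and from 139 to 184 in RPMI8226. The treated library was higher in 6 of 6 lines, with a log2 change of 0.69 ± 0.08 (SE; edgeR adjusted p = 1.28e-06). The rise was carried by 2 of its 4 members: member 4 changed by 1.27 (edgeR adjusted p = 8.23e-08) and member 2 by 1.06 (edgeR adjusted p = 1.76e-06), whereas the tallest, member 1, did not pass the threshold (edgeR adjusted p = 0.991). Member 4 rose from 21.9 to 84.1 CPM in Karpas620 and from 17.9 to 71.8 in KMS27, and in L363 from 40.3 to 94.5. This cluster lies in repeated sequence, so reads of other copies may be among these counts.

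CCR12P rose by 0.53 ± 0.12 (SE) on the log2 scale (edgeR adjusted p = 0.00532) and was higher in 6 of 6 lines. It went from 53.6 to 130 CPM in KMS27, from 66.8 to 113 in L363 and from 67.6 to 112 in MM1S. In OPM2 (52.2 to 58.8), RPMI8226 (69.9 to 78.9) and Karpas620 (158 to 162) the change was small. Without KMS27 the change was 0.36 (edgeR adjusted p = 0.068), so KMS27 decided the call.

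Member 3 of CCR12P, at 100084138 to 100085586 on chromosome 13, accounted for this rise and had the largest change of all members, 1.36 ± 0.16 (SE; edgeR adjusted p = 5.26e-07). It went from 20.9 to 82.1 CPM in KMS27, from 14.4 to 51.9 in MM1S, from 26.0 to 62.2 in L363, from 9.39 to 21.7 in OPM2, from 16.3 to 30.5 in Karpas620 and from 15.1 to 22.1 in RPMI8226. It was called in 11 of 22 untreated lines and in all 6 lenalidomide libraries. The members on either side had log2 changes of 0.48 (member 2) and -0.33 (member 4) that did not pass the threshold.

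RNA5SP86 rose by 0.33 ± 0.10 (SE) and was higher in 6 of 6 lines (edgeR adjusted p = 0.048). Of its 5 members, member 4, also its tallest, passed the threshold with 0.48 ± 0.12 (SE; edgeR adjusted p = 0.0101). This region went from 7.83 to 20.8 CPM in OPM2, from 48.7 to 82.4 in MM1S and from 44.4 to 47.8 in RPMI8226, with the other 3 lines between these. The whole cluster was no longer called by DESeq2 (adjusted p = 0.163) or in 5 of the 6 edgeR fits that leave out 1 line, with the fit without RPMI8226 as the exception (adjusted p from 0.0426 to 0.192).

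RN7SL329P was the only cluster of the 25 lowered past the threshold. It went from 195 to 135 CPM in KMS27, from 169 to 125 in L363, from 147 to 106 in MM1S, from 76.5 to 55.8 in RPMI8226, from 60.0 to 21.7 in OPM2 and from 12.5 to 8.61 in Karpas620. The log2 change was -0.60 ± 0.11 (SE; edgeR adjusted p = 0.000923), lower in 6 of 6 lines, and 5 lines lay between -0.43 and -0.52 while OPM2 was at -1.43. Of its 5 members, 3 passed the threshold on their own, with changes of -0.56 (member 2), -0.66 (member 3) and -0.66 (member 5). The change was thus spread over the cluster, unlike the rises of NUDT4P1 and CCR12P, which 1 or 2 members carried.

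**Figure D5:**
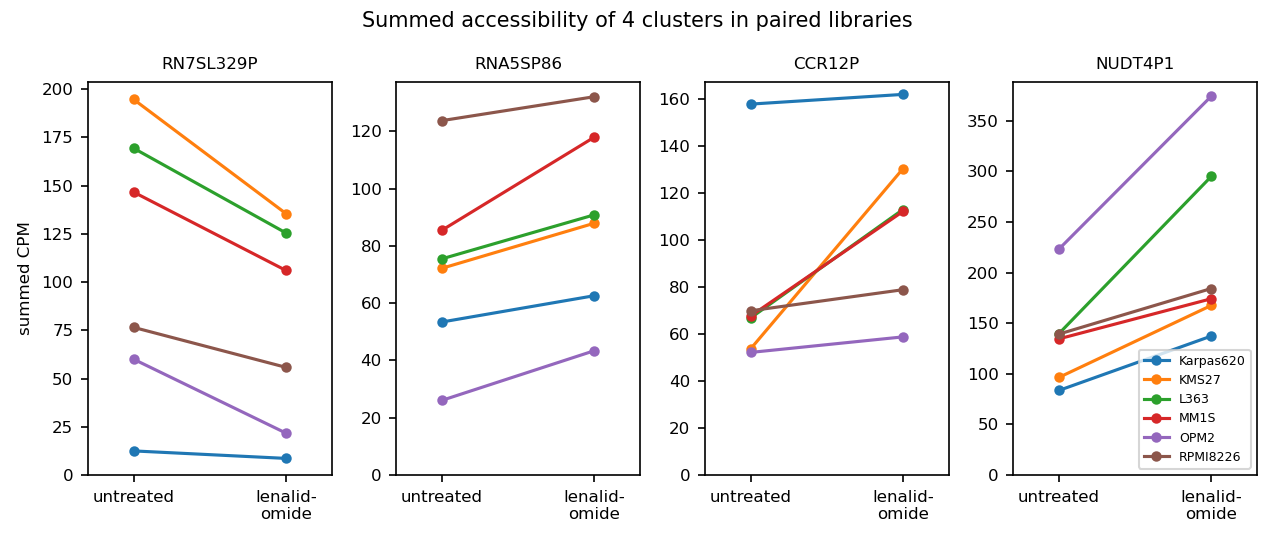
Summed CPM (y axis, linear from 0, own scale in each panel) of the 4 clusters past the threshold in the untreated and the lenalidomide library of each of 6 lines (x axis), joined by a line per cell line. RN7SL329P fell in each line, from 195 to 135 CPM in KMS27 for example, and NUDT4P1 rose in each line, from 223 to 374 CPM in OPM2.

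The other 4 members past the threshold belonged to clusters whose sum did not pass it. Member 4 of RAB11FIP1, upstream of that gene, rose by 1.01 ± 0.19 (SE; edgeR adjusted p = 0.000466) and was higher in 5 of 6 lines, from 15.2 to 64.3 CPM in KMS27 and from 12.8 to 10.96 in Karpas620. Member 1 of RP11-303G3.6, in repeated sequence, fell by 0.85 on the log2 scale (edgeR adjusted p = 6.46e-05), from 227 to 106 CPM in OPM2 and from 83.1 to 39.6 in MM1S, with RPMI8226 at 7.56 and 8.004. Member 3 of FNDC3B fell by 0.61 (edgeR adjusted p = 0.0362) and member 2 of MEF2C-AS1 by 0.65 (edgeR adjusted p = 0.0454), both lower in 6 of 6 lines. In Karpas620 this rested on few counts, 6 untreated and 2 treated at FNDC3B and 5 and 3 at MEF2C-AS1. In L363 the FNDC3B member went from 19.9 to 17.5 CPM. The sums of FNDC3B, MED6P1 and RP11-303G3.6 were lower in 6 of 6 lines too, with log2 changes of -0.23, -0.22 and -0.27 that did not pass the threshold (edgeR adjusted p = 0.124, 0.258 and 0.0776).

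The sums of POU2AF1, ELK2BP and MEF2C-AS1 did not pass the threshold. POU2AF1 had a log2 change of -0.05 ± 0.11 (SE; edgeR adjusted p = 0.860), with lines from -0.53 in Karpas620 to 0.41 in KMS27. ELK2BP had -0.13 ± 0.07 (SE; edgeR adjusted p = 0.276), and its members 2 and 4 were lower in 6 of 6 lines with changes of -0.38 and -0.36 just outside the threshold (edgeR adjusted p = 0.0529 and 0.0521). MEF2C-AS1 had -0.14 ± 0.10 (SE; edgeR adjusted p = 0.465).

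As a whole, the share of counts in the members did not move in one direction. It changed by -0.0114, 0.0319, 0.0190, -0.00493, -0.0109 and 0.00380 percentage points in Karpas620, KMS27, L363, MM1S, OPM2 and RPMI8226, a mean of 0.0046 (exact two-sided sign-flip test, p = 0.5625, n = 6 lines). Between 61 and 92 members were called per lenalidomide library, 32 were called in all 6 and 3 in none.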

How the data were processed

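The authors mapped reads to GRCh37 with Bowtie2 2.2.6, marked putative duplicates with SAMtools 1.7, called peaks in each library with MACS2 2.1.0.20151222 at a q of 0.01 and merged the peaks of the 28 libraries. The deposited values used were the raw counts per merged autosomal region and a deposited score from 0 to 4 per region and library, which the files do not define and which was taken to say how many peaks of that library lie in the region. Duplicate removal, a shift of read ends and counting by fragment are not given in the sources used here. The deposited table of coverage scaled by depth was not used.

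CPM was computed from the counts per total in regions, and log values took a pseudocount of 1. Lenalidomide and untreated libraries were paired by the cell line that the labels give, and log2 values of the 2 libraries of a line had r between 0.933 and 0.959. Regions passing filterByExpr, and joined elements, were tested in R 4.3.3 with edgeR 4.0.16 (quasi-likelihood, TMM, cell line as a block, Benjamini-Hochberg over all features tested, threshold 0.05), with the SE taken from the fold change and its F. DESeq2 1.42.0 was an alternative. On simulated counts for this comparison over 37732 regions, the test found 130 of 200 regions altered by 2-fold, made 12 false calls and called 0 regions where none was altered. Single values were compared by exact sign-flip tests in numpy 2.4.6, which with 6 lines reach no p below 0.03125. Each line was assayed once per condition, so p-values measure the spread between lines, and intervals cover counting error only.

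Places, genes and sequence came from GRCh37. Clusters named were the 10 with most members, the 10 with the highest mean CPM, the 5 with the highest and the 5 with the lowest variation, those called after lenalidomide with one direction in 6 of 6 lines, and those at genes of the lists. The others, and single members, were added after their values were seen. The members and lists were chosen with earlier results of these data known.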

Additional observations from a re-analysis of the deposited data

Results flagged for a closer look

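Among 52 sets of 6 values (the lenalidomide changes of the 25 clusters, their levels in the 6 treated libraries, and 2 library measures), 3 had 1 line farther from the other 5 than Dixon's 95% limit allows, where chance alone flags about 1 in 20 groups, or 2.6 here. At RN7SL329P, OPM2 had a log2 change of -1.43 and the nearest other line -0.52. At UBE2J1, OPM2 had -0.82 and the nearest other line -0.13, while the fitted change of that cluster did not pass the threshold (edgeR adjusted p = 0.529). At LOXL1, the lenalidomide library of RPMI8226 had 109 CPM and the nearest other line 34.4, and the untreated library of RPMI8226 was also the highest of the 22 lines at 83.6 CPM. What set these lines apart was not tested.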

How the results depend on the processing

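The number of members and clusters followed the rule: 64 in 15 with a gap of 10 kb, 182 in 41 with 20 kb, 416 in 127 with 3 or more regions, 42 in 8 with 5 or more, 342 in 76 at 8 lines, 26 in 6 at 15 lines, 0 in 0 at 22 lines, and 66 in 15 beyond 5 kb from a start. Of the calls after lenalidomide, 0 members and 0 clusters were raised or lowered in the fit without the cell line as a block, where 3 members had an unadjusted p below 0.05. DESeq2 called 4 members raised (3.67%, against 1.92% of all regions) and 2 lowered (1.83% against 0.299%). Members chosen on 16 lines gave 3 raised (2.54% against 4.20%) and 7 lowered (5.93% against 1.24%), with 2 clusters raised (7.14% against 3.62%) and 2 lowered (7.14% against 2.55%). Without 1 line, members raised ranged from 4 to 7 (3.88% to 6.42%, against 2.55% to 5.05% of all regions). Members lowered ranged from 2 to 8 (1.83% to 7.48%, against 0.581% to 1.61%). Clusters raised ranged from 1 (without KMS27) to 3 (4% to 12%, against 1.99% to 4.50% of joined elements). In each of these fits 1 cluster was lowered (4%, against 1.29% to 2.95%). 2 alternatives were chosen after seeing the data. Without the 3 clusters in repeated sequence, 3 members were raised and 5 lowered among the 98 left. Without the library labelled KMS34, 2 members were raised and 6 lowered among 92. Of its 21 clusters, 1 was raised and 1 lowered (4.76% each). Over all regions tested, 4.2% were raised and 1.24% lowered.

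The held-out difference in calls was 13.03 points with a gap of 10 kb and 11.4 without KMS34, both at p = 0.03125 (exact test). That in level was 0.52 per kb, 0.60 with a pseudocount of 0.1 and 0.43 without the repeated clusters, each at p = 0.0625 (exact test), and 0.48 to 0.63 without 1 line, where 5 lines allow no p below 0.0625. The change in the share of counts turned to -0.0054 points with members chosen on 16 lines and to -0.031 as a mean of log2 values, and ranged from -0.00089 (without KMS27) to 0.00777. Per kb of covered sequence the untreated share was 0.00288%. The change of POU2AF1 ranged from -0.17 to 0.033 (without Karpas620) and that of LOXL1 from -0.057 (without RPMI8226) to 0.14. The causes were not tested. Depth limits single members in shallow libraries, where a few counts decide a call.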
